A study of Mus musculus with 24 samples.

Results

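The genes described here encode the nuclear part of the oxidative phosphorylation machinery: subunits of the respiratory complexes I to IV, subunits of the ATP synthase (complex V), and assembly factors that carry the same name stems. They were chosen by name alone. A row was a member where its gene name began with Nduf, with Sdh followed by a to d, with Uqcr, with Cox4 to Cox8 or with Atp5. Of 88 names matched, 3 were joined to a neighbouring gene (Ndufb9 with Rnf139, Atp5j2 with Ptcd1 and Cox6b1 with Upk1a) and were left out. This left 85 members among the 12224 rows of the table. By complex, 43 belonged to complex I, 7 to complex II, 7 to complex III, 12 to complex IV and 16 to complex V. Of the 85, 11 were assembly factors (8 Ndufaf and 3 Sdhaf genes) and 74 were subunits. Ndufa4 was counted with complex IV, where its protein is known to sit, and Cox7a2l, a factor that joins complexes III and IV into supercomplexes, was placed there too. The names mix older and newer symbols, and they were used as the table gives them.

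Oxidative phosphorylation takes electrons from NADH (at complex I) and from succinate (at complex II), passes them through ubiquinone, complex III and cytochrome c to complex IV, and reduces oxygen to water. Complexes I, III and IV pump protons across the inner mitochondrial membrane, and ATP synthase lets them flow back to make ATP. Most subunits are nuclear genes, while the mitochondrial genome encodes a few catalytic and membrane subunits, none of which was among the rows analysed here. In kidney tubule epithelium this ATP drives the sodium pump and so the transport of salt and water.

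Polyadenylated RNA was sequenced from 24 libraries of mpkCCD cells, an epithelial line from the mouse kidney cortical collecting duct. The design crossed a Gpr39 knockout with an agonist of GPR39, a zinc-sensing receptor, in 4 groups of 6 libraries: KO cells given agonist, KO cells given vehicle, WT cells given agonist and WT cells given vehicle. Agonist meant 1 µM cpd1324 with 10 µM ZnCl2 and vehicle meant 0.1% DMSO with 10 µM ZnCl2, so zinc was shared by all groups. The labels give no DMSO percentage for the agonist groups. Treatment lasted 2 h on the basolateral side, after 9 days of polarization on inserts in medium without the vasopressin analogue dDAVP and 24 h in simple medium, and the questions asked were which transcripts the agonist changed and whether that needed Gpr39. The labels name neither the edited part of Gpr39, nor the number of KO clones, nor a batch, and they do not say that replicates were separate cultures. Each p-value therefore measures the spread between these libraries alone, and the order of library numbers, which ran by group, cannot be told apart from group.

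Levels are given in scaled units, the authors' length-normalized signal multiplied by 1 constant that set the mean column total to 1000000. Comparisons of level between genes rest on the row lengths used for that signal. Column totals still differed, from 896920 (KO agonist replicate 6) to 1197560 (WT agonist replicate 5), so comparisons between libraries rest on the authors' scaling. A fold change is a difference of log2(scaled units + 0.5), which understates changes of low genes, and is given with its standard error from limma over 6 libraries a group. A gene was called where its adjusted p (limma, Benjamini-Hochberg over 11557 rows whose mean reached 1 scaled unit) was below 0.05. Recovered reads came to 29.8 to 51.9 M a library. Gpr39 itself had 8.20 to 10.6 scaled units in all 12 KO libraries and 20.3 to 31.1 in the 12 WT libraries, with no overlap. Of 12 principal cell markers 10 had rows here, Aqp2 and Avpr2 among them, and their summed level was 2366 to 3019 scaled units in KO agonist libraries, 2572 to 3192 in KO vehicle libraries, 6084 to 8152 in WT agonist libraries and 2761 to 3278 in WT vehicle libraries. For the other cell types listed, the summed markers reached at most 57.7 scaled units for intercalated cells (3 of 7 genes), 16.4 for proximal tubule (1 of 6), 7.75 for thick limb and distal tubule (1 of 4), 3.27 for fibroblasts (1 of 6) and 80.0 for endothelial and immune cells (2 of 6, Cd68 and Csf1r). Some of these sums also differed by genotype. Thick limb and distal tubule markers were at most 0.74 scaled units in WT and at least 4.11 in KO libraries. Intercalated cell markers were at most 33.8 in WT and at least 34.6 in KO libraries. Proximal tubule markers went the other way. They were at most 8.91 in KO agonist and at least 11.05 in WT agonist libraries. Under vehicle they were at most 6.77 in KO and at least 8.06 in WT libraries. The part of these markers in the results below was not tested.

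One library stood apart and bears on every comparison with KO cells given vehicle. In KO vehicle replicate 6, 36 of 84 members (42.9%) lay far outside the range of the other 5 libraries of the group, 27 below and 9 above, against 31.4% of all rows tested. Atp5e, the epsilon subunit of the ATP synthase stalk, had 386 scaled units there and 842 to 969 in the other 5. Ndufv1, which carries the NADH-binding site of complex I, had 262 against 504 to 535. In the opposite direction, the complex III subunit Uqcrb had 243 against 132 to 141 scaled units, and the complex I subunit Ndufa12 had 347 against 173 to 199. This library's members were thus scattered in both directions, but more lay below all the other 5 (45) than above them (27). Of the 11557 rows tested, 4377 lay below and 4558 above, with 1656 far below and 1971 far above. Because the 4 groups share 1 estimate of the spread, the library also widened the errors of comparisons it was not part of, and results are given with and without it where it mattered. Other libraries lay to 1 side of their group by less: WT agonist replicate 2 had 62 of 84 members above and 1 below all the other 5 (9.52% far outside their range, against 1.19% of all rows), WT vehicle replicate 2 had 48 below and 1 above, and KO agonist replicate 6 had 44 below and 1 above. Other rows of at most 1319 bases, the median member length, moved the same way. Their median log2 deviation from the mean of all 24 libraries was 0.10, −0.05 and −0.10 in these libraries, in that order. For the members it was 0.08, −0.08 and −0.08.

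The members were abundant transcripts as a group. Of the 84 tested, 72 were above the median level of all rows (32.2 scaled units), 57 were above 100 and 9 were below 20. Their median over all 85 was 178 scaled units, and the order by complex ran from complex V at the top (median 456) through complex IV (409), complex III (301) and complex II (154) to complex I (72.3). Subunits had a median of 183 and the 11 assembly factors one of 18.1, with the highest assembly factor, Sdhaf2, at 39.6. All 11 were counted with complexes I and II, so the medians of these complexes mix subunits and assembly factors. The most abundant member was Atp5b, the catalytic beta subunit of the F1 head, with 2284 to 2495 scaled units (median 2376) in KO agonist libraries, 2076 to 2456 (median 2403) in KO vehicle libraries, 2323 to 2587 (median 2343) in WT agonist libraries and 2162 to 2384 (median 2222) in WT vehicle libraries. Cox8a and Cox6a1, small complex IV subunits in their widely expressed forms, came next with means of 1383 and 1178 scaled units. The plot of levels by complex shows these ranges.

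**Figure D1:**
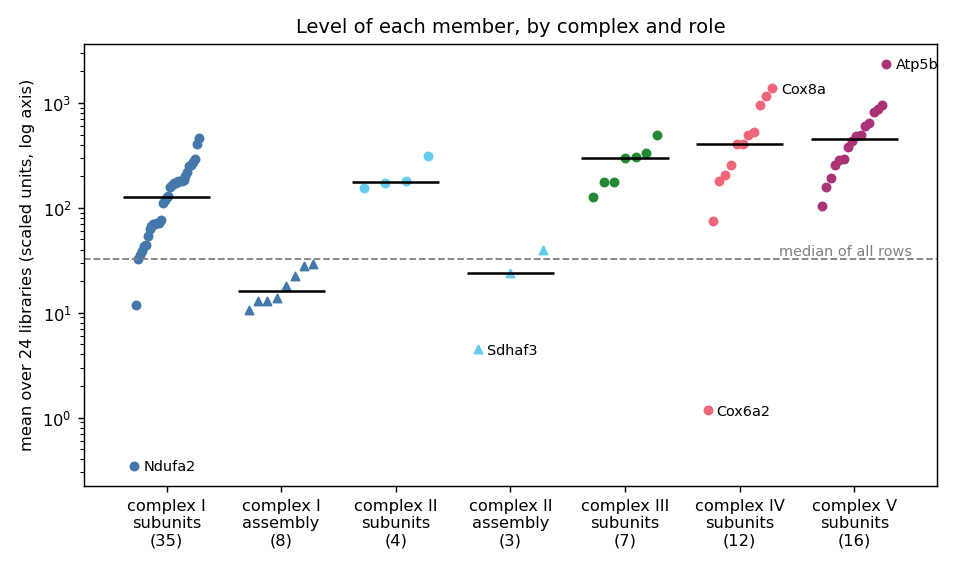
Mean level of each of the 85 members over 24 libraries (scaled units, log axis), split by complex and into subunits (circles) and assembly factors (triangles); horizontal bars are medians and the dashed line is the median of all rows tested, 32.2. Assembly factors lie below that line except Sdhaf2, and Atp5b stands highest at 2351.

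Within the complexes the levels of partner genes were unequal. In the c ring, the rotor of ATP synthase, 3 genes encode the same mature protein: Atp5g1 had 284 to 319 scaled units (median 304) in WT vehicle libraries, Atp5g2 809 to 877 (median 852) and Atp5g3 826 to 973 (median 897). The ranges of Atp5g2 and Atp5g3 overlapped, and Atp5g1 lay below both. Of the tissue isoform pairs, Cox6a1 exceeded its muscle form Cox6a2, which had 0 to 17 reads in any library, and Cox7a2, the liver-type form, had 72.4 to 80.1 scaled units (median 78.0) in WT vehicle libraries. At the lower end, Ndufa2, a complex I accessory subunit, had 0 to 9 reads in a library, failed the filter on low values and is the 1 member without a test. Ndufb2 had a mean of 11.8 scaled units but 1642 to 2723 reads, since its length in the table, 15736 bases, is the longest of the members. The median member was 1319 bases long and the median row 3590. Of the 85 members 27 overlapped another RefSeq gene, Ndufa2 (Tmco6) and Cox6a2 (Itgad) among them. Reads of these 27 may be shared where counting did not separate them.

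Promoters of respiratory genes are known for sites of NRF1, of the ETS factor GABPA (also called NRF2) and of YY1. RefSeq promoters (GRCm38.p6, 250 bases before to 50 after the start site) matched 72 of the 85 members by symbol. The exact palindromic NRF1 motif, in capitals in the Ndufaf4 window below, was found in 7 of them (9.72%), against 1.07% of all 27025 genes with a promoter and 2.43% of those tested here. For the ETS core CCGGAAG on either strand the share was 26.4%, against 9.93% of all genes and 21.1% of those tested. AAGATGG, the YY1 core, was in 15.3% of the members, 7.28% of all genes and 8.72% of those tested. The E-box CACGTG (8.33%, 8.09% and 11.9%) and the cyclic AMP response element TGACGTCA (5.56%, 2.03% and 3.73%) completed the search, and in no member did matches of different motifs share bases. These are letter matches in a fixed window and were not tested as sites. The promoters of the highly expressed Cox6a1 and of 3 members taken up below, Ndufaf4, Ndufa9 and Uqcrfs1, are shown on the gene's strand, with motif matches in capitals.
Cox6a1 (chr5:115348909-115349208, minus strand): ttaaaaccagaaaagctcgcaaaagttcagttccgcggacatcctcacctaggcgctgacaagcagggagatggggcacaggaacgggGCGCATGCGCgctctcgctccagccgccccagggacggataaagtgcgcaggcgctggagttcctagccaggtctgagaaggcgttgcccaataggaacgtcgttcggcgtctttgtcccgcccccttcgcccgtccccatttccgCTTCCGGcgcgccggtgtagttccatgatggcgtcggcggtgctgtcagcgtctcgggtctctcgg
Ndufaf4 (chr4:24897833-24898132, plus strand): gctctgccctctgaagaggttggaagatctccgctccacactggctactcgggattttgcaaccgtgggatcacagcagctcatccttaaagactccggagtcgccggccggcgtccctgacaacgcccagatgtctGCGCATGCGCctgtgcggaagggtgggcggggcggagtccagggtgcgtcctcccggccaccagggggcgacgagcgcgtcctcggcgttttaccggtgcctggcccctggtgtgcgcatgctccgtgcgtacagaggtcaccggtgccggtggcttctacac
Ndufa9 (chr6:126849095-126849394, minus strand): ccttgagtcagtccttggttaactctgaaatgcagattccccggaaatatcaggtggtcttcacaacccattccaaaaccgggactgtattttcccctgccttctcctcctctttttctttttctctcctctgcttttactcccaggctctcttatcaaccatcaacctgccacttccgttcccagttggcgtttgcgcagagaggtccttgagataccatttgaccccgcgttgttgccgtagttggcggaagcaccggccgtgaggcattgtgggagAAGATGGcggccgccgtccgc
Uqcrfs1 (chr13:30545267-30545566, minus strand): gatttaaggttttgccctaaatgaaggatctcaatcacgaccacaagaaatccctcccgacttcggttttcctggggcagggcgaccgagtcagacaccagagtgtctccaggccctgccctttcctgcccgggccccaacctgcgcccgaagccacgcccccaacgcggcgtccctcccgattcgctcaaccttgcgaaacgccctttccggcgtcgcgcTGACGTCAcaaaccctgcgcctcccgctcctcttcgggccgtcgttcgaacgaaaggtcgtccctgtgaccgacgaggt
The Cox6a1 window holds the NRF1 motif 162 bases and the ETS core 16 bases before the start site. Ndufaf4 has the NRF1 motif 113 bases before it, Uqcrfs1 the cyclic AMP response element 29 bases before it, and Ndufa9 the YY1 core at base 30 of the transcript.

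In WT cells, 2 h of agonist moved few members, and by little. Of 84 tested, 16 were called (19.0%), 3 higher and 13 lower, against 57.2% of all rows called (28.6% higher and 28.6% lower). The median log2 fold change was −0.05 for the members and −0.01 for all rows, and the median size of the change, without its sign, was 0.08 against 0.20, at nearly the same standard error (0.06 against 0.07). The member median was −0.08 without WT agonist replicate 2 and −0.03 without WT vehicle replicate 6. Among the other rows no longer than the median member, 38.7% were called (173 higher and 251 lower). Their median log2 fold change was also −0.05, and their median size was 0.21, at a larger median standard error of 0.14. No member was called with a fitted change above 1.5-fold. This count was also 0 at an unadjusted p below 0.05 and with voom on recovered reads, against 1498 rows of the whole table. Cox6a2, near detection and not called, had means of 0.518 scaled units in WT agonist and 0.211 in WT vehicle libraries. In bulk RNA, fewer cells of a type and less RNA per cell cannot be told apart.

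These counts depend on how libraries are scaled. The deposited columns of WT agonist libraries summed to 1085490 to 1197560 scaled units, against 942669 to 989598 in WT vehicle libraries. The members summed to 22625 ± 1118 scaled units in WT agonist libraries and 23118 ± 980.4 in WT vehicle libraries (SD, n = 6 each), and these sums overlapped. As a share of each column total, the same members made up 1.98% ± 0.0767 in WT agonist libraries and 2.39% ± 0.0558 in WT vehicle libraries, with no overlap. With library totals made equal, the median of all rows was −0.24 and that of the members −0.29, a difference of −0.05 against −0.04 with the authors' scaling, and 0 members were called higher and 76 lower (72.4% of all rows called, 12.4% higher and 60.1% lower). The counts with the authors' scaling also moved with single libraries: the 3 higher became 1 without WT agonist replicate 2 (55.1% of all rows called) and 6 without KO vehicle replicate 6, and the 13 lower became 8 without WT vehicle replicate 3 (53.7%) and 24 without KO vehicle replicate 6, when 64.8% of all rows were called (32.2% higher and 32.7% lower).

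By complex, complex I held 10 of the 16 calls. Of its 42 tested members 2 were called higher and 8 lower, and none of its 7 core subunits was among them. Complex II had 2 lower calls of 7, both assembly factors, complex III 1 lower of 7 and complex V 1 higher and 2 lower of 16. Of the 12 complex IV members 0 were called by limma, with 0 higher and 1 lower at an unadjusted p below 0.05 and 0 with voom. The assembly factors had 1 higher and 4 lower calls of 11, and the 73 subunits 2 higher and 9 lower.

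Assembly factors of complex I moved in both directions. Ndufaf4, which works in an early step of complex I assembly, had 17.7 to 23.7 scaled units (median 19.0) in WT agonist libraries and 15.1 to 16.6 (median 16.2) in WT vehicle libraries. All 6 agonist libraries lay above all 6 vehicle libraries, and Ndufaf4 rose (0.29 ± 0.07, adjusted p = 0.00187), though with the same total in each library its change was 0.05 (adjusted p = 0.534). Ndufaf7, a methyltransferase needed for complex I assembly, had 24.2 to 25.8 scaled units (median 25.1) in WT agonist libraries against 28.6 to 33.3 (median 31.2) in WT vehicle libraries. Again the groups did not overlap, this time with agonist below vehicle (−0.30 ± 0.05, adjusted p = 5.10e-06). Ndufaf1, an assembly factor of the membrane arm, had 20.8 to 24.4 scaled units (median 22.9) in WT agonist libraries and 24.6 to 30.0 (median 26.4) in WT vehicle libraries, and fell (−0.22 ± 0.06, adjusted p = 0.00195). For succinate dehydrogenase, Sdhaf4, which guards the flavoprotein Sdha during assembly, had 21.3 to 27.6 scaled units (median 22.9) in WT agonist and 27.1 to 34.1 (median 30.7) in WT vehicle libraries. Its ranges overlapped, and it was called lower (−0.35 ± 0.13, adjusted p = 0.0274).

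Of the subunits, Ndufv3, an accessory subunit beside the NADH-binding site, was the 1 whose groups did not overlap. It had 33.1 to 37.3 scaled units (median 35.3) in WT agonist libraries and 41.8 to 47.7 (median 43.0) in WT vehicle libraries, a fall to 80.6% of the vehicle level (−0.31 ± 0.07, adjusted p = 0.000288). Ndufb8, a membrane arm subunit, had 226 to 288 scaled units (median 259.7) in WT agonist libraries and 279 to 376 (median 327) in WT vehicle libraries. Its groups overlapped, and it fell by about as much (−0.33 ± 0.08, adjusted p = 0.000631). Ndufa5 (−0.24), Ndufa3 (−0.21), Ndufb10 (−0.15) and Ndufa8 (−0.12), all accessory subunits of complex I, were also called lower, as were Uqcr11 of complex III (−0.17), the ATP synthase dimer subunits Atp5k (−0.20) and Atp5l (−0.17), and Sdhaf2 (−0.11). Ndufb2 (0.14) and Atp5d, the delta subunit of the F1 stalk (0.11 ± 0.04, adjusted p = 0.0222), were called higher, but Atp5d was at −0.14 (adjusted p = 0.00356) with the same total in each library. In all, 4 called members had groups without overlap (Ndufaf1, Ndufaf4, Ndufaf7 and Ndufv3), where 37.5% of all rows had none.

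**Figure D2:**
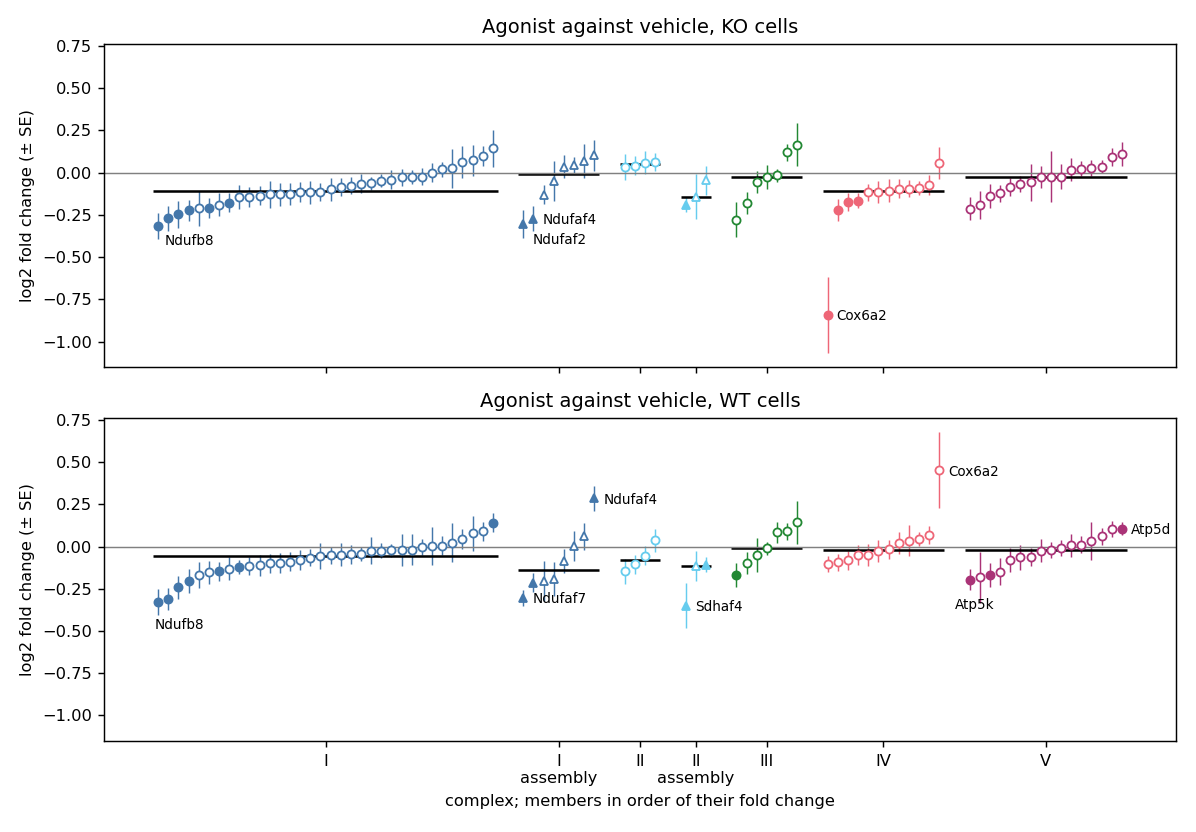
Log2 fold change of agonist over vehicle (± SE) for the 84 tested members in KO cells (upper panel) and WT cells (lower panel), grouped by complex with assembly factors (triangles) apart and sorted within each; filled symbols were called and bars are medians. Most points lie within 0.25 of 0, the 13 calls in KO cells are all below 0, and Ndufaf4 is above 0 in WT cells and below it in KO cells.

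In KO cells given agonist, 13 of 84 members were called, all lower, against 9.3% of all rows (4.66% higher and 4.64% lower). The count of 0 higher was 1 at an unadjusted p below 0.05 and 0 with voom. The median was −0.07 for the members, −0.01 for all rows and −0.08 for other rows no longer than the median member, of which 9 were called higher and 69 lower. The calls included the accessory subunits Ndufb1, Ndufa6, Ndufb8, Ndufb4 and Ndufb3 of complex I, and Cox7c, Cox6c and Cox8a of complex IV.

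Of 8 KO calls followed one library at a time, 7 were lost in at least 1 of the 24 fits. Ndufb1 had 64.5 to 73.8 scaled units (median 69.3) in KO agonist libraries and 76.5 to 110.2 (median 82.9) in KO vehicle libraries. The groups did not overlap, as in 4.53% of all rows and for 5 of the called members, and it fell (−0.32 ± 0.08, adjusted p = 0.0188; without KO vehicle replicate 6, −0.25 ± 0.07, adjusted p = 0.0205). Ndufv2, a core subunit of the NADH module, had 171 to 184 scaled units (median 178) in KO agonist libraries and 191 to 248 (median 199) in KO vehicle libraries, also without overlap (−0.21 ± 0.06, adjusted p = 0.0299). Ndufa6, an accessory subunit of the LYR family, had 101 to 111 scaled units (median 103) in KO agonist and 113 to 154 (median 118) in KO vehicle libraries (−0.22 ± 0.06, adjusted p = 0.0297). Cox8a, with 1198 to 1452 scaled units (median 1377) in KO agonist and 1469 to 1689.8 (median 1508) in KO vehicle libraries, was called at the edge of the threshold (−0.17 ± 0.05, adjusted p = 0.0471): with 1 library left out the call held in 7 of 24 fits, and it was lost with the same total in each library (adjusted p = 0.0555) and in the fit of the KO groups alone (adjusted p = 0.0628). Leaving out 1 library at a time gave 2 to 16 lower calls, and the count over all rows moved with it. There were 2 without KO agonist replicate 1 (2.46% of all rows called), 4 without replicate 3 (5.09%), 5 without replicate 4 (3.71%), 3 without replicate 5 (4.16%) and 4 without replicate 6 (3.82%). Without KO vehicle replicate 3 there were 6 (5.74%) and without replicate 5 there were 4 (5.28%). Without KO vehicle replicate 6 it was 16 (13.7% of all rows called, 6.65% higher and 7.03% lower), and in a fit of the 2 KO groups alone it was 8 (8.54% of all rows).

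The agonist effect differed between genotypes for 6 members, 5 with a positive and 1 with a negative interaction (WT effect minus KO effect), against 41.1% of all rows (21.5% positive and 19.6% negative). Ndufaf4 had the largest interaction of those well above detection, at 0.56 ± 0.10, adjusted p = 0.000102. It rose in WT cells (0.29) and fell in KO cells (−0.27 ± 0.07, adjusted p = 0.0261), where it had 14.0 to 18.4 scaled units (median 16.5) with agonist and 17.5 to 22.7 (median 20.3) with vehicle. The interaction was 0.52 ± 0.10, adjusted p = 0.000142 without KO vehicle replicate 6. Ndufaf7 had the 1 negative interaction (−0.35 ± 0.07, adjusted p = 0.000122): it fell in WT cells, and in KO cells it had 28.9 to 31.2 scaled units (median 30.5) with agonist and 26.2 to 33.3 (median 28.8) with vehicle (0.05 ± 0.05, adjusted p = 0.528). Of the other positive ones, Ndufaf2, an assembly factor of complex I, stood at 0.06 in WT and −0.30 in KO cells (0.36 ± 0.12, adjusted p = 0.0142 for the difference). Uqcrq, a small subunit of complex III, stood at 0.09 and −0.18 (0.26 ± 0.09, adjusted p = 0.0188), and Cox7c at 0.02 and −0.22 (0.24 ± 0.09, adjusted p = 0.0386). Cox6a2 was near detection throughout, and the interaction of Cox7c was called in 13 of the 24 fits that left out 1 library. Without KO vehicle replicate 6, 7 interactions were positive and 2 negative (46.4% of all rows called, 24.0% positive and 22.4% negative). With the same total in each library, where the median of all rows was −0.28, 2 interactions were positive and 60 negative (65.2% of all rows called, 9.76% positive and 55.5% negative), and those of Uqcrq (−0.01) and Cox7c (−0.04) were below 0, while that of Ndufaf2 was 0.10 (adjusted p = 0.439) and not called. The 1 negative interaction became 2 without KO agonist replicate 6 (39.3% of all rows called), KO vehicle replicate 2 (40.8%) or KO vehicle replicate 6, and the 2 effects share no library.

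**Figure D3:**
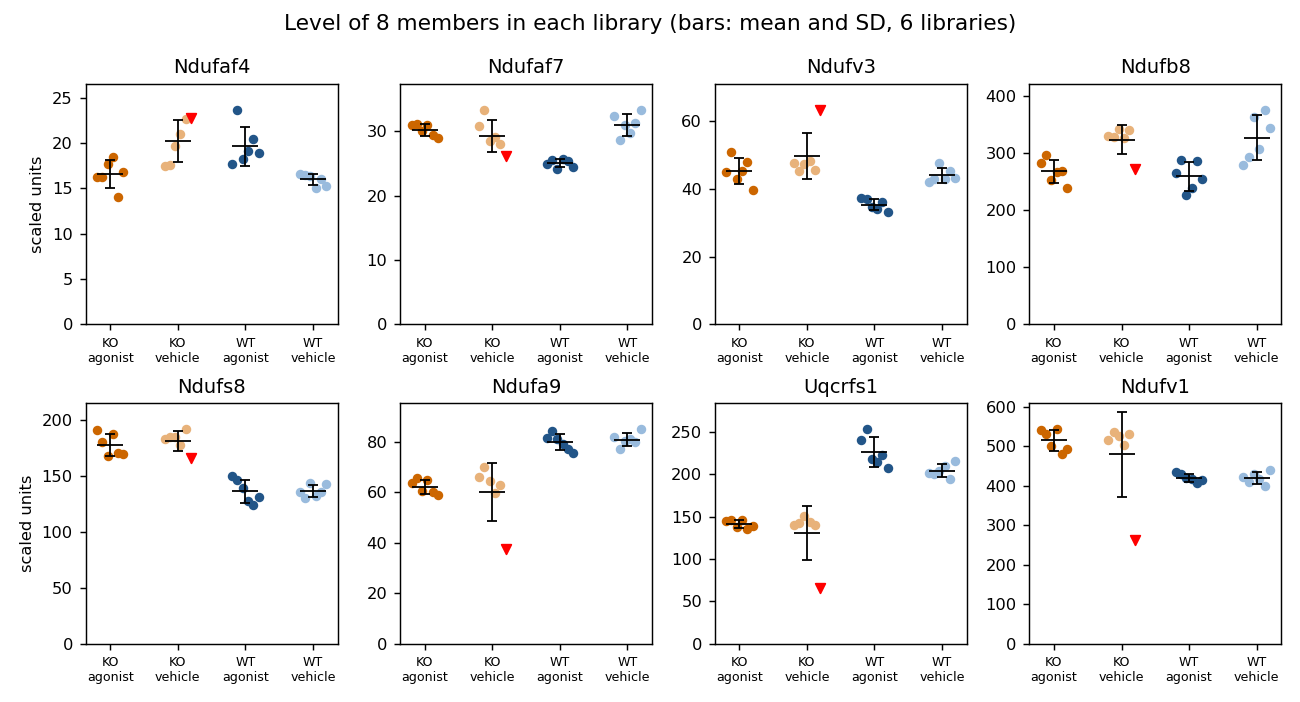
Level of 8 members in every library (scaled units, axes from 0), with KO agonist, KO vehicle, WT agonist and WT vehicle from left to right, mean and SD bars in black, and KO vehicle replicate 6 as a red triangle. Ndufaf4 is higher in WT agonist (17.7 to 23.7) than in WT vehicle libraries (15.1 to 16.6), and its KO vehicle libraries (17.5 to 22.7) overlap WT agonist. Ndufs8 and Uqcrfs1 separate KO from WT cells under both treatments. The triangle lies far below its group for Ndufa9, Uqcrfs1 and Ndufv1 and above it for Ndufv3.

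With the authors' scaling, KO and WT cells differed for more members than agonist and vehicle did. Under vehicle 35 of 84 members (41.7%) were called, 27 higher and 8 lower in KO cells, against 47.8% of all rows (23.9% higher and 23.9% lower). The median was 0.07 for the members, 0.00 for all rows and 0.02 for other rows no longer than the median member. Without KO vehicle replicate 6 the counts were 40 higher and 10 lower (52.5% of all rows called, 26.4% higher and 26.1% lower) and the median 0.09. With the same total in each library, 39 members were called for KO against WT under vehicle (46.5% of all rows). The agonist effect in WT cells then had more, 76 members (72.4% of all rows). The labels do not say whether the KO cells are 1 clone, so differences between clones and those of the genotype cannot be told apart.

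Complex IV held 7 higher and 2 lower calls of 12, complex I 15 higher and 2 lower of 42, complex III 2 and 2 of 7, complex V 2 and 1 of 16, and complex II 1 and 1 of 7. The lowest was Uqcrfs1, the Rieske iron-sulfur protein that passes electrons within complex III. It had 65.5 to 151 scaled units (median 142) in KO vehicle libraries and 195 to 216 (median 203) in WT vehicle libraries, with every KO library below every WT library. Its level was 61.8% of that in WT cells (−0.69 ± 0.13, adjusted p = 7.59e-05), and −0.51 ± 0.04, adjusted p = 4.96e-10 without KO vehicle replicate 6. Ndufa9, an accessory subunit at the junction of the 2 arms of complex I, had 37.7 to 70.1 scaled units (median 63.7) in KO vehicle and 77.0 to 85.0 (median 80.7) in WT vehicle libraries, again without overlap (−0.45 ± 0.09, adjusted p = 0.00023; −0.32 ± 0.04, adjusted p = 2.77e-07 without that library). Sdhaf4 was lower too, at 12.6 to 25.4 scaled units (median 23.3) in KO vehicle against 27.1 to 34.1 (median 30.7) in WT vehicle libraries (−0.51 ± 0.13, adjusted p = 0.00262). Uqcr11 (−0.34), Ndufa4 (−0.26), Cox7a2l (−0.22 ± 0.05, adjusted p = 0.000981), Atp5d (−0.21 ± 0.04, adjusted p = 6.19e-05) and the core subunit Ndufs7 (−0.18) completed the 8 lower calls.

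Among the members higher in KO cells, Ndufs8, a core subunit with iron-sulfur clusters, had 166 to 192 scaled units (median 184) in KO vehicle libraries and 129.8 to 143 (median 135) in WT vehicle libraries. The groups did not overlap, and its level was 133% of that in WT cells (0.41 ± 0.05, adjusted p = 1.50e-07). Uqcrq had 493 to 663 scaled units (median 569) in KO vehicle and 402 to 463 (median 443) in WT vehicle libraries, also without overlap (0.41 ± 0.06, adjusted p = 6.64e-06). Ndufaf4 (0.32), Ndufb1 (0.31), Ndufv2 (0.29) and Ndufaf1 (0.25) were higher, and so were the complex IV subunits Cox5a (0.26), Cox4i1 (0.21), Cox7b (0.21), Cox8a (0.20), Cox7c (0.20) and Cox6a1 (0.18). Of the c-ring genes Atp5g3 was higher (0.21 ± 0.05, adjusted p = 0.00124), while Atp5g1 stood at −0.08 and Atp5g2 at 0.01, or at 0.0036 and 0.07 without KO vehicle replicate 6, called in neither. Cox6a2, the muscle form, had 1.98 to 3.71 scaled units (median 2.60) in KO vehicle and 0 to 0.399 (median 0.20) in WT vehicle libraries. Its groups did not overlap (2.15 ± 0.22, adjusted p = 1.96e-08), but it had at most 17 reads in a library, so its fitted fold change depends on the constant added before the logarithm. In all, 14 members had groups without overlap, where 27.3% of all rows had none.

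Ndufv1 shows how far 1 library can decide. With all libraries the difference between KO and WT cells under vehicle was not called (0.15 ± 0.11, adjusted p = 0.272), and without KO vehicle replicate 6 it was called higher (0.32 ± 0.03, adjusted p = 4.45e-08). The other 5 KO vehicle libraries held 504 to 535 scaled units, and the WT vehicle libraries 400.3 to 439.5 scaled units (median 419). Ndufb7 (0.19 with it and 0.32 without it), Ndufb6 (0.08 and 0.24), and the succinate dehydrogenase subunits Sdhb (0.15 and 0.24) and Sdha (0.11 and 0.17) likewise were called only without that library. Ndufv3 was called higher with it (0.16 ± 0.07, adjusted p = 0.0454) and not without it (0.09 ± 0.05, adjusted p = 0.123), but its call held in only 15 of the 24 fits that left out 1 library. Ndufa12 was 0.26 with it and 0.11 without it, Uqcrb 0.34 and 0.20, and Cox5a 0.26 and 0.39, all called both ways. Atp5e was at −0.18 with it and 0.02 without it, called in neither.

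**Figure D4:**
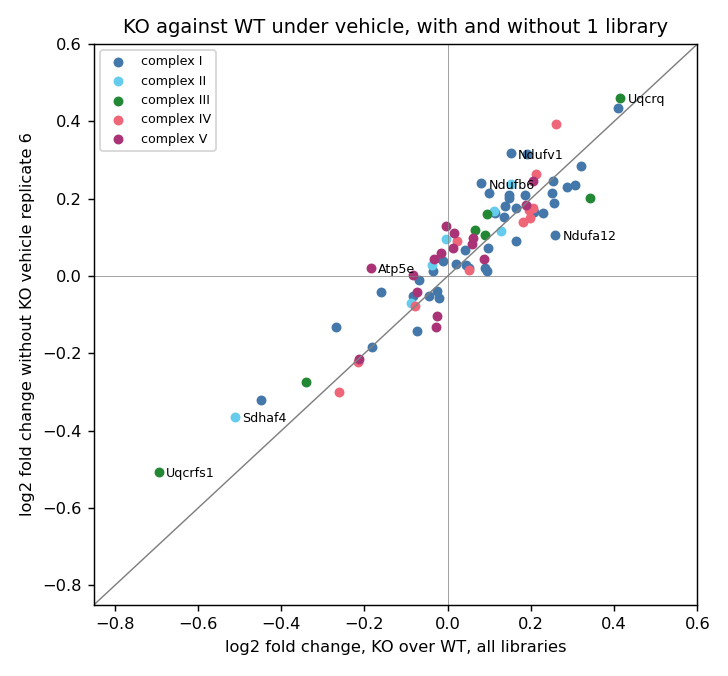
Log2 fold change of KO over WT cells under vehicle for 83 members, with all libraries (horizontal axis) and without KO vehicle replicate 6 (vertical axis); the diagonal marks equal values and Cox6a2, near detection, is left out. Points leave the diagonal on both sides: Ndufv1, Ndufb6 and Atp5e lie above it and Ndufa12 below it, while Uqcrfs1 stays the lowest both ways at −0.69 and −0.51.

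Rows on different chromosomes differed in their typical value between KO and WT cells under vehicle. Over the rows tested other than the members, the median log2 fold change was −0.33 on chromosome 6, −0.20 on chromosome 13 and −0.16 on chromosome 10. It was 0.17 on chromosome 8, and between −0.10 and 0.10 on the other chromosomes. On chromosome 6, 71.6% of these rows were called lower, on chromosome 10 52.7% and on chromosome 13 49.4%. The 5 members there had a median of −0.09, with Ndufa9 and Ndufa4 called lower and the other 3 not called. On chromosome 10 the 5 members had a median of −0.18, with Uqcr11, Atp5d and Ndufs7 called lower and Ndufa12 higher. On chromosome 13 the 7 members had a median of 0.20, with 4 called higher (Uqcrb, Ndufs6, Ndufaf2 and Cox7c) and Uqcrfs1 called lower. The lower quartile of the other rows there was −0.52, with Uqcrfs1 at −0.69, or at −0.51 without KO vehicle replicate 6. Both members on chromosome 8, Cox4i1 and Ndufb7, had values above 0 (median 0.20), and Cox4i1 was called. The part of chromosome in the members' differences was not tested.

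**Figure D5:**
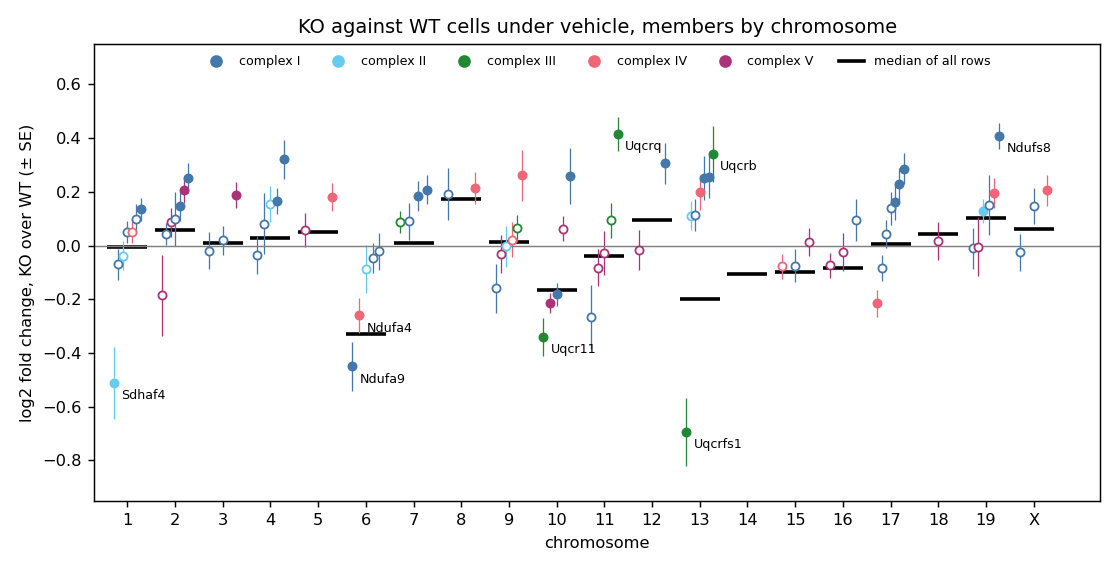
Log2 fold change of KO over WT cells under vehicle (± SE) for 83 members by chromosome, coloured by complex, with filled symbols where called and Cox6a2 left out. Black bars, labelled as the median of all rows, are the median of the rows tested other than the members on each chromosome. The chromosome medians are lowest on 6, 13 and 10, Uqcrfs1 lies far below the other members of chromosome 13, and Ndufs8 lies above its chromosome's bar. The lower quartile of the other rows on chromosome 13, not drawn, was −0.52.

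Under agonist, KO cells again had 35 of 84 members called, 22 higher and 13 lower than WT cells, against 64.1% of all rows (32.0% higher and 32.1% lower), with medians of 0.05 and 0.01 (0.08 for the members without WT agonist replicate 2). This comparison shares no library with the one under vehicle, but its WT libraries are those of the agonist effect. Uqcrfs1 was again the lowest, with 136 to 147 scaled units (median 142) in KO agonist libraries and 207 to 253 (median 221) in WT agonist libraries. The ranges were far apart, at a level 62.8% of that in WT cells (−0.67 ± 0.13, adjusted p = 5.65e-05). Ndufs8 had 168 to 191 scaled units (median 175) in KO agonist and 124 to 149.6 (median 135) in WT agonist libraries, without overlap (0.38 ± 0.05, adjusted p = 1.42e-07). Ndufa9 (−0.36 ± 0.09, adjusted p = 0.00132), Ndufa4 (−0.35 ± 0.07, adjusted p = 5.01e-05), Atp5d (−0.29 ± 0.04, adjusted p = 4.65e-07) and Cox7a2l (−0.24 ± 0.05, adjusted p = 0.000184) were lower in KO cells, and all 4 had been lower under vehicle. Under agonist the median of rows other than members was −0.31 on chromosome 6 (Ndufa9, Ndufa4) and −0.18 on chromosome 10 (Atp5d). It was −0.25 on chromosome 13 (Uqcrfs1) and 0.06 on chromosome 17 (Cox7a2l). The part of chromosome was not tested here either.

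Members that agonist changed in WT cells also stood out here, where the same WT agonist libraries enter. Ndufaf7 (0.27 ± 0.05, adjusted p = 2.14e-05), Ndufaf1 (0.34 ± 0.06, adjusted p = 9.58e-06) and Ndufv3 (0.35 ± 0.07, adjusted p = 6.08e-05) were higher in KO than in WT cells given agonist. Ndufaf4 was lower (−0.24 ± 0.07, adjusted p = 0.00664), the reverse of its difference under vehicle. The succinate dehydrogenase subunits Sdha (0.28 ± 0.05, adjusted p = 8.23e-05), Sdhb (0.18) and Sdhd (0.18) were called higher, and Ndufv1 was too (0.29 ± 0.11, adjusted p = 0.0252). Of the members called, 18 had groups without overlap, where 46.3% of all rows had none. Without KO vehicle replicate 6, which enters only through the shared spread, 31 were higher and 14 lower (70.1% of all rows called, 35.1% higher and 35.0% lower). With the same total in each library, which moved the median of all rows to 0.28 and that of the members to 0.34, 69 members were called higher and 1 lower (77.8% of all rows called, 62.9% higher and 14.9% lower), and Atp5d (0.00), Cox7a2l (0.05), Ndufa6 (0.10) and Ndufaf4 (0.04) were no longer below 0. Ndufa9 (−0.07, adjusted p = 0.469) and Ndufa4 (−0.06, adjusted p = 0.422) were then not called. Uqcrfs1 was called lower in KO cells, under vehicle and under agonist, in every setting run.

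Genes that build, feed or regulate the complexes were also measured in WT cells given agonist. Of 33 tested assembly factors with other names, 16 fell and 0 rose (0 also at an unadjusted p below 0.05 and with voom), with a median of −0.16, where 28.6% of all rows were called lower and 28.6% higher. With the same total in each library 30 fell and 0 rose, where 60.1% of all rows were lower and 12.4% higher. Tmem126b, part of the complex I intermediate assembly complex, had 10.5 to 11.9 scaled units (median 11.3) in WT agonist libraries and 16.5 to 18.7 (median 17.9) in WT vehicle libraries, without overlap (−0.64 ± 0.05, adjusted p = 3.79e-11). Cox19 (−0.47 ± 0.05, adjusted p = 1.28e-08) and Pet117 (−0.36 ± 0.04, adjusted p = 1.71e-08), which serve complex IV, also fell without overlap. In KO cells 1 of the 33 fell (Cox17, −0.21) and 0 rose (3 at an unadjusted p below 0.05 and 0 with voom), where 4.64% of all rows were lower and 4.66% higher. Of their interactions 12 were negative, where 19.6% of all rows had a negative one.

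Regulators of mitochondrial gene expression were split in WT cells given agonist: of 14 tested, 2 rose and 8 fell (28.6% of all rows in each direction), or 1 rose and 12 fell with the same total in each library (12.4% and 60.1% of all rows). The coactivators Ppargc1a (PGC-1alpha) and Ppargc1b fell (−0.99 ± 0.20, adjusted p = 0.000203 for Ppargc1a and −0.59 ± 0.09, adjusted p = 5.59e-06 for Ppargc1b), with levels of at most 6.82 and 6.07 scaled units in any library. Tefm, a mitochondrial transcription elongation factor, fell (−0.47 ± 0.07, adjusted p = 1.24e-06). Gabpb1, the partner of GABPA, rose, with 26.1 to 29.9 scaled units (median 27.2) in WT agonist and 18.3 to 20.2 (median 19.5) in WT vehicle libraries and no overlap (0.50 ± 0.06, adjusted p = 1.45e-07). Of 18 tricarboxylic acid cycle and pyruvate dehydrogenase genes 9 rose and 4 fell (median 0.11), against the same 28.6% of all rows in each direction, led by Pdhb (0.42 ± 0.04, adjusted p = 9.72e-09), Dlst (0.30) and Dld (0.23). This direction depended on the scaling: with the same total in each library 1 of the 18 rose and 9 fell (median −0.13, where 12.4% and 60.1% of all rows did), with Pdhb at 0.18 (adjusted p = 0.000368) and Dld at −0.01 (adjusted p = 0.712).

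Electron carriers and their feeders outside the name rule had 2 higher and 1 lower call of 7 in WT cells given agonist. For this and the 3 lists that follow, 28.6% of all rows were called in each direction, and with lists of 6 to 11 genes the counts are small. Gpd2, which passes electrons from glycerol phosphate to ubiquinone, rose (0.50 ± 0.06, adjusted p = 2.40e-08), and Cycs, cytochrome c, rose in WT cells (0.29 ± 0.06, adjusted p = 0.000162) and fell in KO cells (−0.29 ± 0.06, adjusted p = 0.00981), an interaction of 0.58 ± 0.08, adjusted p = 3.59e-06. Of 11 ubiquinone synthesis genes 1 rose and 4 fell, with Coq9 (−0.46 ± 0.05, adjusted p = 3.07e-09) and Coq8a (−0.89 ± 0.09, adjusted p = 7.06e-09) among those that fell. Of 10 genes of uncoupling, nucleotide exchange and peroxide defence 2 rose and 4 fell, among them Sod2 (−0.32), and of 6 genes of the low-oxygen response 1 rose, Lonp1 (0.31), and 0 fell (0 at an unadjusted p below 0.05 and with voom). With the same total in each library the rise of Gpd2 was 0.26 (adjusted p = 0.000117), while Cycs was at 0.05 (adjusted p = 0.373) and Lonp1 at 0.07 (adjusted p = 0.364), and 9 of the 11 ubiquinone synthesis genes fell, where 60.1% of all rows did.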

How the data were processed

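The authors deposited 1 table of length-normalized signal per gene and library, with 24 columns. Its making involved GRCm39 as the build and DESeq, DESeq2 and STAR 2.7.8a as tools, per the submitters' processing notes, which give no roles here. Strand and the treatment of multi-mapped reads are not given in the sources used here. Each value was multiplied by 92.1, so that column totals averaged 1000000. Row lengths gave back near-whole reads (tolerance 0.05), which served voom and the read ranges only. limma 3.58.1 (R 4.3.3) was fitted to log2(scaled units + 0.5) of all 24 libraries in 4 groups with trended, robust variances and 20 residual degrees of freedom, over rows with a mean of 1 or more, at an adjusted p of 0.05. The script was tested on simulated data. Python 3.11.15 and pandas 2.3.3 did the rest. The members and lists were chosen with earlier results of these data known. Members followed through all settings were the highest and lowest by level, isoform sets, and per comparison up to 6 calls with the smallest adjusted p and no overlap; others named in the text were chosen after their values were seen. Chromosomes came from the deposited row identifiers. Promoters and overlapping genes came from RefSeq tables of GRCm38.p6, matched by symbol. Alternatives were the pseudocount (2), the filter (5, or none), equal library totals, a replicate block, the compared groups alone, voom, and leaving out libraries.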

Additional observations from a re-analysis of the deposited data

Results flagged for a closer look

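Among 116 groups of 6 values examined (29 members followed through all settings, 4 groups each), 19 held 1 library that stood far from the other 5 relative to the range of the group, where chance flags about 1 in 20 groups. In KO vehicle replicate 6 these were 2076 for Atp5b, 212 for Atp5g1, 700.4 for Atp5g2, 897 for Atp5g3, 61.4 for Cox7a2, 154 for Ndufa6, 37.7 for Ndufa9, 262 for Ndufv1, 248 for Ndufv2, 63.2 for Ndufv3, 243 for Sdhc and 65.5 for Uqcrfs1, all in scaled units. The remaining ones lay in other libraries. Atp5d had 280.0 scaled units in WT vehicle replicate 5. Cox6a2 had 0.533 scaled units in KO agonist replicate 5. Cox8a had 1198 scaled units in KO agonist replicate 6. Ndufa2 had 0.844 scaled units in WT vehicle replicate 2. Ndufaf1 had 27.7 scaled units in KO vehicle replicate 3. Ndufv2 had 187 scaled units in WT agonist replicate 2. Uqcrq had 528 scaled units in WT agonist replicate 2. Ndufa2 and Cox6a2 were near detection. The agonist effect also differed between genotypes (WT effect minus KO effect, limma interaction, adjusted p below 0.05) for 6 members on the log2 scale: 0.56 for Ndufaf4, 0.36 for Ndufaf2, 0.26 for Uqcrq, 0.24 for Cox7c, 1.29 for Cox6a2 and −0.35 for Ndufaf7. With the same total in each library those of Uqcrq and Cox7c were below 0, and that of Ndufaf2 was 0.10 (adjusted p = 0.439).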

How the results depend on the processing

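Setting each library to the same total moved the median of all rows to −0.24 for the agonist effect in WT cells, −0.28 for the interaction and 0.28 for KO against WT under agonist. It gave 0 higher and 76 lower members in WT cells, 2 positive and 60 negative interactions, and 69 higher and 1 lower member for KO against WT under agonist. Under it Atp5d in WT cells was −0.14, the interactions of Cox7c and Uqcrq were −0.038 and −0.012, and KO against WT under agonist was 0.0023 for Atp5d, 0.048 for Cox7a2l, 0.10 for Ndufa6 and 0.042 for Ndufaf4. Calls lost under it were those of Ndufaf2 for the interaction and of Ndufa9 and Ndufa4 for KO against WT under agonist, among others. The cause was not tested. Without KO vehicle replicate 6 and KO agonist replicate 2 there were 6 higher and 24 lower members in WT cells, 22 lower in KO cells, and 8 positive and 2 negative interactions, where 65.1%, 22.7% and 46.1% of all rows were called. The compared groups alone gave 8 lower in KO cells (8.54% of all rows called). Leaving out 1 library at a time gave 1 to 6 higher and 8 to 24 lower members in WT cells, 0 higher and 2 to 16 lower in KO cells, 4 to 7 positive and 1 to 2 negative interactions, 23 to 40 higher and 8 to 10 lower for KO against WT under vehicle, and 18 to 31 higher and 10 to 14 lower under agonist. Over all rows these fits called 53.1% to 64.8% in WT cells, 2.46% to 16.0% in KO cells, 38.5% to 46.4% for the interaction, 44.5% to 52.5% under vehicle and 61.6% to 70.1% under agonist. Of 54 calls followed this way, 43 held in all 24 fits, 11 were lost in some and 0 changed sign. The labels do not say whether replicate numbers pair the libraries, and the main fit did not pair them. Deviations of same-numbered libraries correlated at −0.28 to 0.49, which cannot settle whether they were paired. With the replicate block, 19 members were called in WT cells, 10 in KO cells, 7 for the interaction, 33 for KO against WT under vehicle and 34 under agonist, where 57.0%, 9.71%, 40.9%, 47.7% and 64.1% of all rows were called. The block ended the calls of Cox8a in KO cells (adjusted p = 0.0593) and of Ndufv3 for KO against WT under vehicle (adjusted p = 0.0738). A planned edgeR alternative was not run, and voom on the recovered reads, chosen after seeing the data, took its place. Low read numbers limit Ndufa2 (at most 9 in a library) and Cox6a2 (at most 17). Both overlap another RefSeq gene, and the part of that overlap in their reads was not tested.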
